A study of Mus musculus with 26 samples.

Results

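The genes described here are 44 that stromal cells express, as members of the extracellular matrix, of its processing or of the mesenchymal programme. They were given by name, with earlier results of these data known, and all 44 were matched among 21883 protein-coding genes of the mouse assembly GRCm38.p6. They were read in 2 lists of H3K4me3 peaks, 1 from Ebf1-/- progenitors and 1 from Early-B cells made from those progenitors. Both groups lack Ebf1, the transcription factor that specifies the B lineage. In Early-B cells EBF1 was supplied from the retroviral vector MigR1 as the fusion EBF1.ER, and the cells spent 2 days on OP9 stroma with 4-O-Hydroxy-tamoxifen, the ligand that switches the fusion on, and with the cytokines IL-7, SCF and FLT3-L. How the progenitors were grown before chromatin was taken is not given in the labels, so EBF1 and culture cannot be told apart in any comparison below. The labels name 2 immunoprecipitated and 2 input samples per group, of 26 samples in the series. Each group had 1 peak list, which leaves no replicate spread and no test between groups, and the read depth behind a peak is unknown.

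H3K4me3, trimethylation of lysine 4 on histone H3, is laid down at promoters of genes that are active or poised, where a peak usually covers the first stretch of the transcribed gene. OP9 is a stromal line from mouse calvaria that supports blood cell differentiation in culture. Stromal cells secrete collagens and glycoproteins, crosslink them with lysyl oxidases, remodel them with metalloproteinases, and hold lymphoid progenitors through CXCL12 and VCAM1. Blood progenitors are not a main source of fibrillar collagen, so the fibrillar collagen genes are usually read as markers of the supporting cells. That reading does not extend to the whole list, since blood cells also express Vim. Which cells of a culture carried the peaks was not tested.

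A peak was assigned to a gene when it overlapped the gene's span or the 1 kb on either side. By that rule 40 of the 44 genes had a peak in Early-B and 20 in progenitors. Over all protein-coding genes the shares were 69.0% and 63.0%. In chromatin of a whole culture, few cells with much of the mark and many cells with little of it cannot be told apart. A peak in both lists was found at 20 of the 44 (61.0% of all coding genes), in Early-B alone at 20 (8.01%), in progenitors alone at 0 (2.01%) and in neither at 4 (29.0%). The genes with peaks in Early-B alone were Col3a1, Col5a2, Nid1, Lox, Loxl1, Sparc, Postn, Fbln2, Thbs1, Thbs2, Fstl1, Ccn1, Ccn2, Bgn, Mmp2, Timp3, Cxcl12, Vcam1, Twist1 and Twist2. Dcn, Lum, Tagln and Lepr had no peak in either list.

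**Figure D1:**
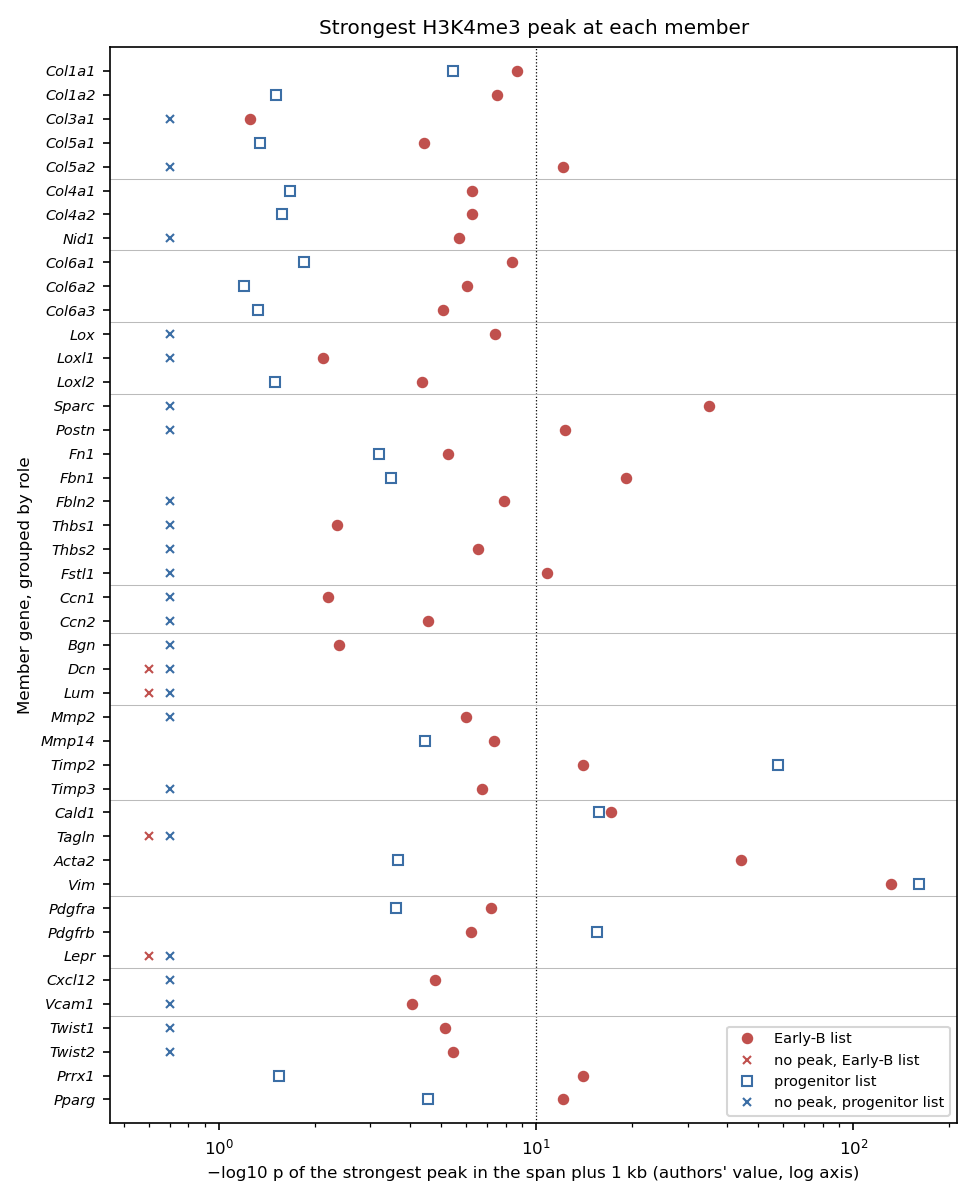
The authors' −log10 p of the strongest peak at each of the 44 genes is shown on a log axis, circles for the Early-B list and open squares for the progenitor list, with crosses at the left for no peak and a dotted line at 10. Vim and Timp2 lie far to the right in the progenitor list, while most circles fall left of the dotted line.

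The span of a gene sets how many peaks it can meet, so the counts were also read within bands of span. Of 14 stromal genes spanning over 10 and up to 30 kb, 9 had peaks in Early-B alone (64.3%, against 7.11% of 6453 coding genes in that band). From 30 to 100 kb it was 7 of 17 (41.2%, against 9.51% of 5077), and above 100 kb 1 of 7 (14.3%, against 18.3% of 2428). In the shortest band, up to 10 kb, it was 3 of 6, against 4.61% of 7925. The 7 genes above 100 kb were in both lists at 6, against 73.0% of coding genes of that span.

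The strand of the gene, which tells its start from its far end, was given in the promoter table for 30 of the 44. A peak within 1 kb of the start end was present in Early-B at 29 of these 30 genes, against 57.2% of the 17491 coding genes with strand, and in progenitors at 8, against 54.4%. The start end carried a peak in Early-B alone at 21 (4.91% of all), in both lists at 8 (52.3%), in progenitors alone at 0 (2.10%) and in neither at 1, Lepr (40.7%). A far-end peak was met at 3 of 30 in Early-B (12.5% of all), Sparc, Cald1 and Twist1, each beside or as part of a start peak, and at 0 in progenitors (10.5%). A far-end peak without one at the start was found at 0 of 30 in both lists, against 437 of the 17491 in Early-B and 369 in progenitors.

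**Figure D2:**
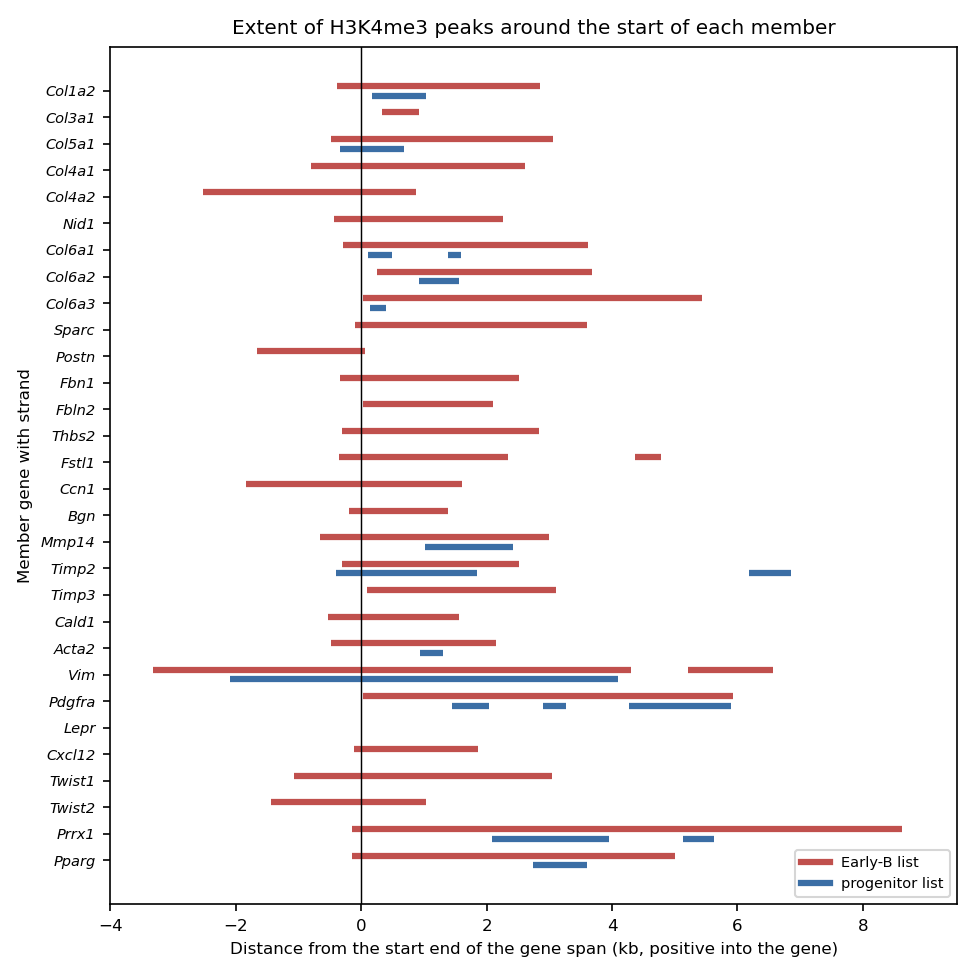
Bars show where peaks of the Early-B list (upper bar of each gene) and of the progenitor list (lower bar) lie relative to the start end of the 30 genes with strand, in kb, positive into the gene. Early-B bars run mostly from just before the start to 2 or 3 kb inside, and the progenitor bars that exist are mostly shorter pieces beneath them.

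Promoters of 7 of these genes are printed below, chosen by their peaks and not by CpG content. They are the 6 genes with peaks in Early-B alone whose start peak had the highest −log10 p, in that order, and then Lepr, which had no peak. Each runs 5′ to 3′ from 250 bases before to 50 after the annotated start, is taken from RefSeq in GRCm38.p6, and has its CpG dinucleotides in capitals. Their positions are chr3:54359017-54359316 on the plus strand (Postn), chr6:91212514-91212813 plus (Fbln2), chr11:55420031-55420330 minus (Sparc), chr10:86300162-86300461 plus (Timp3), chr17:14694213-14694512 minus (Thbs2), chr16:37776805-37777104 plus (Fstl1) and chr4:101717157-101717456 plus (Lepr).
Postn: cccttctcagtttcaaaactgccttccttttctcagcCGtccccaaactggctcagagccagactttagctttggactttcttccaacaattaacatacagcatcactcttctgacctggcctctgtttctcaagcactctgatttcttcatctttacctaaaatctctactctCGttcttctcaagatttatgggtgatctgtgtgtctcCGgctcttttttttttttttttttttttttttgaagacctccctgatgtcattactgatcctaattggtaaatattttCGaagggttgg
Fbln2: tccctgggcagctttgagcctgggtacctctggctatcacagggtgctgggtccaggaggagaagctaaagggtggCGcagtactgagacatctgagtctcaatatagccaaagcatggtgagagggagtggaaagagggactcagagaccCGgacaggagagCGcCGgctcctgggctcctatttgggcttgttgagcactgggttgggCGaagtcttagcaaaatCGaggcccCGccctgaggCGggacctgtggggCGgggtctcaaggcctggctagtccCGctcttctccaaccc
Sparc: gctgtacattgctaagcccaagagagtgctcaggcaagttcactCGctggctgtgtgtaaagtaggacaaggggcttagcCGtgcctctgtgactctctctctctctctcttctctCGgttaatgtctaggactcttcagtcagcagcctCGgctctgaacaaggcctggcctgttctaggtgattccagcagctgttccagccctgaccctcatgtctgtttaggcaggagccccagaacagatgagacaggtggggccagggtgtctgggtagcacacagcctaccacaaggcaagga
Timp3: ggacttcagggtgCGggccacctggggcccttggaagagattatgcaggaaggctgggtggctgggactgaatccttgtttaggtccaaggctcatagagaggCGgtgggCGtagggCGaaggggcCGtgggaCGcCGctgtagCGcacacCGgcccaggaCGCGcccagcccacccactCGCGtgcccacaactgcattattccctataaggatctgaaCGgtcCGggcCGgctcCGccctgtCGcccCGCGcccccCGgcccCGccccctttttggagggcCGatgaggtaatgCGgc
Thbs2: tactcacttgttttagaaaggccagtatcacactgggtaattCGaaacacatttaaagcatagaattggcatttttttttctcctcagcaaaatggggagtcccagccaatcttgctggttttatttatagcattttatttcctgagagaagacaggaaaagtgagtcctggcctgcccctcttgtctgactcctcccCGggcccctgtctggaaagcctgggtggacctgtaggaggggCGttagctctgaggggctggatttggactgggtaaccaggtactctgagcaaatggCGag
Fstl1: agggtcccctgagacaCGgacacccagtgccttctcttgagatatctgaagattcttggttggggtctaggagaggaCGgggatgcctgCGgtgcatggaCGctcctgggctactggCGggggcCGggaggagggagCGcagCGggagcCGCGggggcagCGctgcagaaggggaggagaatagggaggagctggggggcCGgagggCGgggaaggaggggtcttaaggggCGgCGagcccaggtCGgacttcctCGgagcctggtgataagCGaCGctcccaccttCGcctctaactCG
Lepr: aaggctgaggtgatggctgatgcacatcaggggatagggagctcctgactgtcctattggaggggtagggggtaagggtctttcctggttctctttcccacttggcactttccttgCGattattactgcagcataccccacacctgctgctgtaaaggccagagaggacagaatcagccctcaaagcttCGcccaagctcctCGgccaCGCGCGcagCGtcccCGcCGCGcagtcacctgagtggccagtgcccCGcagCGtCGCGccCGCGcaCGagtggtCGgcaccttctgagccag
Postn, Sparc and Thbs2 had 4 CpG each in these 300 bases, Fbln2 10, Lepr 18, Fstl1 21 and Timp3 24. The Early-B start peak covered the whole printed stretch at Postn, Fbln2, Thbs2 and Fstl1 and 150 of its 300 bases at Sparc. At Timp3 it began 93 bp inside the gene and covered 0 of them. Over the 30 genes the count ran from 0 at Col3a1 to 44 at Pparg, with a median of 12 against 13 over all 17491 promoters.

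Across all coding genes a start peak went with CpG content, and among the stromal genes it was present at every level. Of coding genes with 0 to 4 CpG, 15.6% had an Early-B start peak and 12% a progenitor one. Among the 6 stromal genes in that band (Col3a1, Col6a1, Col6a3, Sparc, Postn and Thbs2) the counts were 6 and 2. With 20 or more CpG, 86.4% of coding genes had an Early-B start peak and 85.7% a progenitor one. The 12 stromal genes there had 12 and 2, the latter Col5a1 and Timp2. The stromal share with a progenitor start peak was thus 33.3% against 12% of coding genes in the lowest band, and 16.7% against 85.7% in the highest. The 2 in the lowest band, Col6a1 and Col6a3, had progenitor start peaks with −log10 p of 1.27 and 1.33 and q above 0.05. In the highest band that of Col5a1 was as weak (1.34, q above 0.05), while that of Timp2 reached 58.0.

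**Figure D3:**
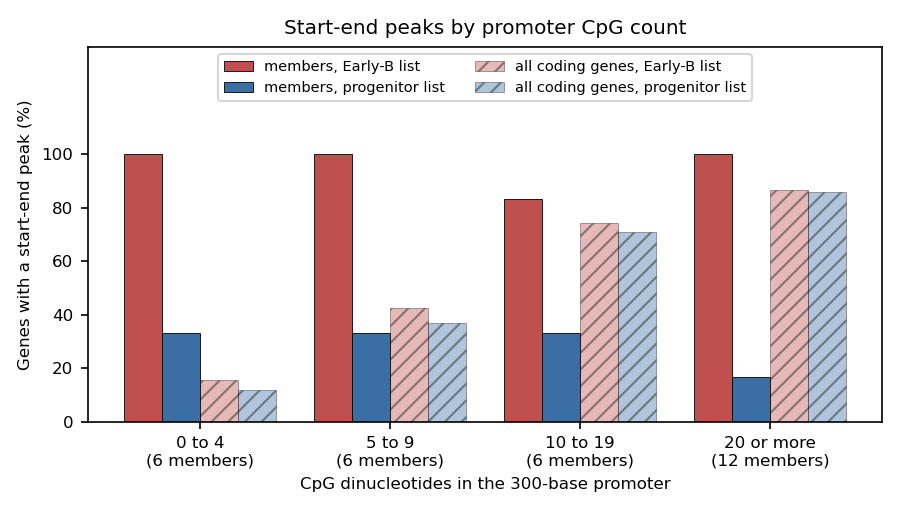
Bars give the share of genes with a peak within 1 kb of the start end (%), by the number of CpG dinucleotides in the promoter, for the stromal genes (solid) and all coding genes (hatched) in each list. The solid Early-B bars stand at 100% in 3 of 4 bands (5 of 6 genes in the other), while the solid progenitor bars stay at 33.3% or less in each.

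Short elements were searched in the same promoters on both strands. TATAAA, the core of the TATA box, was found in 5 of 30 stromal promoters (Col3a1, Thbs2, Ccn1, Vim and Twist1) and in 13.3% of all. CCAAT was found in 13 of 30 and in 39.2% of all. TGANTCA, which takes in the site of AP-1 factors, was found in 1 of 30 (Col6a1) and in 7.03% of all. CCCNNGGG, the outline of the EBF1 site, was found in 3 of 30 (Col4a2, Mmp14 and Twist2) and in 15.2% of all. Of the printed promoters, Thbs2 held TATAAA and CCAAT, and Postn and Lepr held CCAAT.

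The Early-B start peaks of the stromal genes were low, and long for their fold. Their median length was 3242 bp over 29 genes, close to the 3124 bp of all 10004 coding genes with such a peak. Their median fold enrichment, the authors' ratio of signal to background, was 2.90, against 14.99 over all, and their median pileup, the authors' read coverage, was 20.2 against 115. The fold lay between 2 and 4 at 22 of the 29 (75.9%, against 11.2% of all start peaks), under 2 at 3 and over 4 at 4. Within that band of fold the stromal start peaks had a median length of 3408 bp, against 1398 bp for the 1125 coding genes in it, and all 22 exceeded the latter. Of those 22, 21 were longer than 2 kb, against 30.4% of the 1125. Length and fold come from 1 list here, so this comparison does not cross lists.

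**Figure D4:**
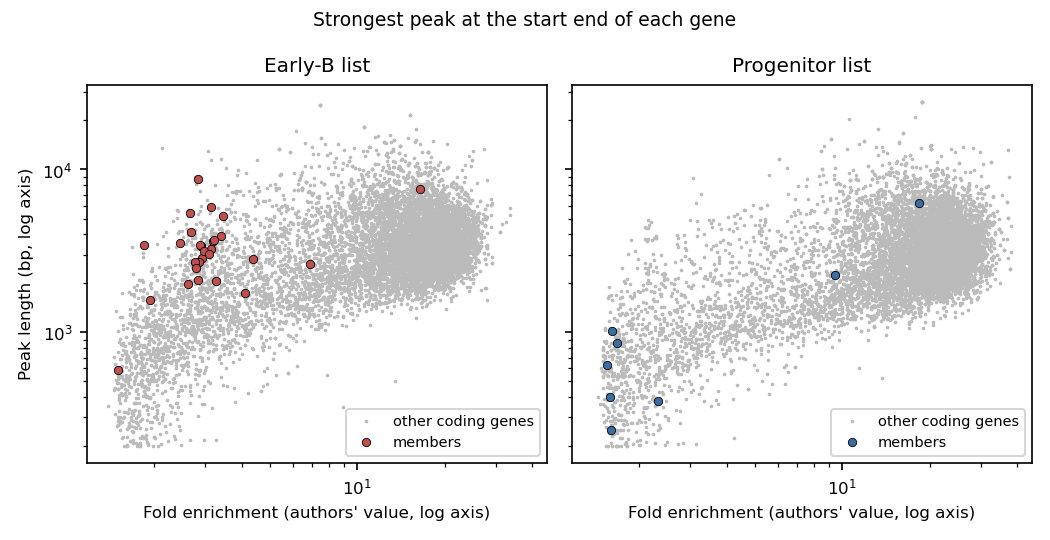
Each point is the strongest peak at the start end of 1 coding gene, by fold enrichment and length (both log axes), from Early-B (left) and from progenitors (right), with stromal genes filled. In Early-B most stromal genes form a group at a fold of about 3, longer than most grey points of that fold, and in progenitors 6 of 8 lie at its lower left.

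These peaks mostly ran into the gene. The counts that follow were not made over all coding genes, so they show no trait particular to the stromal genes. Of the 29, 23 covered the start end itself and 25 reached further downstream than upstream, with median edges at -334 and 2609 bp relative to it. In 27 of 29 the peak came within 1 kb of the end of no other coding gene. The remaining pair is Col4a1 and Col4a2, neighbours transcribed away from each other, whose starts share 1 Early-B peak of 3408 bp (chr8:11310280-11313687, −log10 p 6.25). That peak cannot be divided between them and counts once for each.

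The Early-B list is the longer one, with 48054 peaks of a median 1164 bp, against 31414 of a median 1231 bp in progenitors. The lowest −log10 p was 1.01 in each list, so the weakest values given here lie near that floor. Over all spans and their 1 kb, the Early-B list held 64 different peaks with a summed length of 156.3 kb and the progenitor list 33 with 34.44 kb. The median length was 2558 bp in Early-B and 663 bp in progenitors. Of the 64, 21 overlapped a progenitor peak (32.8%, against 49.6% of all Early-B peaks). Of the 33, 26 overlapped an Early-B peak (78.8%, against 77.2% of all progenitor peaks). The authors' q was above 0.05 for 17 of the 64 and for 21 of the 33. At 12 of the 29 genes with an Early-B start peak, a progenitor peak lay somewhere under it.

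Where both lists had a peak in the span plus 1 kb, the strongest peak of each list was compared by −log10 p. These peaks could lie at different sites, as at Col4a1, Col4a2 and Loxl2, so the count is not of matched sites. At Cald1 the strongest Early-B peak (17.3) lay at the far end. At the site of its strongest progenitor peak (15.8), Early-B had 3.52. At the site of the strongest progenitor peak of Fbn1 (3.48), Early-B had 2.15. The higher −log10 p was the Early-B one at 17 of 20 stromal genes, against 17.1% of the 13356 coding genes in both lists. The other 3 stromal genes were Vim, Timp2 and Pdgfrb. Among the other genes of matrix and mesenchyme, listed below, it was the Early-B one at 22 of 42 (52.4%). At the 8 start ends with a peak in both lists the Early-B peak was the longer at 8, against 64.5% over all coding genes. These values depend on each list's depth and scaling, so they are set beside the same count over all genes and not read as a change.

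Fibrillar collagens form the tensile fibres of the matrix, and collagen I is a trimer of the Col1a1 and Col1a2 chains. Col1a1 had an Early-B peak of 3116 bp (chr11:94935998-94939113, pileup 24.3, −log10 p 8.66) across its lower-coordinate end and a progenitor peak of 2094 bp (21.6, 5.46) inside that stretch. Col1a2 had an Early-B start peak of 3242 bp (pileup 22.0, −log10 p 7.54) and a progenitor peak of 855 bp (11.96, 1.51), near the lowest pileup of that list, 10.65. Col3a1 had a single 590-bp Early-B peak just inside its start, at a pileup of 10, the lowest value in that list, and a −log10 p of 1.25. Col5a1, which nucleates collagen fibrils, had start peaks of 3547 bp in Early-B (4.43) and 1025 bp in progenitors (1.34). Col5a2 had 3 Early-B peaks, of which the strongest lay inside the gene (1061 bp, 12.2) and another, 2672 bp long (6.37), at the higher-coordinate end.

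Basement membrane genes repeated this form. Col4a1 and Col4a2, the chains of the main collagen IV network, shared the start peak given above. In progenitors the strongest peak had a −log10 p of 1.68, and all lay deep inside the genes. Nid1, which links laminin to collagen IV, had 4 Early-B peaks, the start peak being 2690 bp long (pileup 19.5, −log10 p 5.70), and no progenitor peak.

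Collagen VI is built from 3 chains, and all 3 genes were in both lists with the same contrast. The Early-B start peaks covered 3898 bp at Col6a1 (chr10:76722434-76726331, pileup 23.8), 3426 bp at Col6a2 (20.01) and 5408 bp at Col6a3 (18.6). The progenitor peaks under them were 210 and 399 bp at Col6a1, 631 bp at Col6a2 and 253 bp at Col6a3, with −log10 p values of 1.85 or less. None of these 4 progenitor peaks had q at or below 0.05.

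Lysyl oxidases crosslink collagen and elastin. Lox had 1 Early-B peak of 3378 bp (pileup 22.0, −log10 p 7.41) and Loxl1 1 of 3317 bp (12.5, 2.12), both at the higher-coordinate end, with no progenitor peak. Loxl2 had 3 Early-B peaks and 1 progenitor peak, all inside the gene and away from both ends, the strongest 2101 bp long (4.36). Loxl1 shows how far length and strength parted, with a peak nearly as long as that of Lox at little over the lowest pileup of the list.

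By number, matrix glycoproteins had the most genes with peaks in Early-B alone, 6 of 8 (75%, against 8.01% of all coding genes). By share, the CCN genes and the pair Cxcl12 and Vcam1 were higher, at 2 of 2 each. Sparc, a collagen-binding glycoprotein, had 2 Early-B peaks. The stronger (chr11:55394456-55396101, 1646 bp, pileup 53.0, −log10 p 35.0) lay at the lower-coordinate end, which is the far end, because Sparc is on the minus strand. At the start end lay a longer and weaker peak of 3704 bp (chr11:55416477-55420180, pileup 22.5, −log10 p 7.48). The peak of Sparc with the highest −log10 p was thus not its start peak. Postn, which encodes periostin, had 1 Early-B peak (chr3:54357602-54359335, 1734 bp, pileup 30.6, −log10 p 12.4). Its edges were at -1665 and 68 bp relative to the start, so it lay almost wholly upstream.

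Fibronectin, fibrillin and fibulin genes differed in where their strongest peaks lay. Fn1 had an Early-B peak of 5573 bp (5.27) at its higher-coordinate end, over 2 progenitor peaks of 766 bp (1.26) and 1119 bp (3.18). Fbn1, a microfibril gene, had 6 Early-B peaks. Those inside the gene were the strongest (1359 bp, 19.1, and 1067 bp, 15.1), above the start peak of 2851 bp (6.27). Fbln2 had 1 Early-B peak, of 2075 bp (7.91), beginning 24 bp inside its span. Thbs2, a matricellular thrombospondin, had a start peak of 3149 bp (6.54), and its relative Thbs1 a 526-bp peak (2.35) just outside the lower-coordinate end. Fstl1, a secreted glycoprotein, had 4 Early-B peaks, the strongest inside the gene (3685 bp, 10.8) and the start peak 2694 bp long (5.87).

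CCN proteins and small proteoglycans were weak or absent. Ccn1 and Ccn2, matricellular genes that respond quickly to mechanical and serum signals, had Early-B peaks of 3439 bp (pileup 13.2, −log10 p 2.21) and 1509 bp (17.5, 4.55). Bgn, the X-linked biglycan gene, had 1 of 1576 bp (13.1, 2.39) at its start. Dcn and Lum, the decorin and lumican genes that bind collagen fibrils, are neighbouring coding genes on chromosome 10 and had no peak in either list. With no depth known, that says the lists hold no peak there, not that the mark is absent.

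Matrix proteases and their inhibitors included an exception. Mmp2 and Timp3 had peaks in Early-B alone, of 2993 bp (6.01) and 3020 bp (6.74). Mmp14, the membrane-bound activator of MMP2, had a start peak of 3654 bp (7.38) in Early-B and a 1397-bp progenitor peak (4.47) that began 1017 bp inside the gene, just outside the start window. Timp2 had its start marked in both lists, by a peak of 2832 bp (pileup 31.4, −log10 p 14.1) in Early-B and of 2256 bp (72.4, 58.0) in progenitors. Its progenitor peak was the second strongest progenitor peak of all 44 genes.

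Cytoskeletal genes held the strongest Early-B peaks. Vim, the intermediate filament gene that blood cells also express, had a start peak of 7620 bp (chr2:13570987-13578606, pileup 128, −log10 p 131) in Early-B and of 6194 bp (147, 160) in progenitors. Acta2, the smooth muscle actin gene, had an Early-B start peak of 2630 bp (chr19:34253433-34256062, pileup 74.8, −log10 p 44.1) and a 380-bp progenitor peak (17.0, 3.66) inside it. After Vim, that was the Early-B start peak with the highest −log10 p among the 29 genes. Cald1, an actin- and myosin-binding protein gene, had 4 Early-B peaks. They lay at its start (2085 bp, 5.59), inside the gene (2656 bp, 10.2, and 986 bp, 3.52) and beyond its far end (1012 bp, 17.3). In progenitors the site of the 2656-bp peak had one of 955 bp (1.27), the site of the 986-bp peak had one of 1147 bp (15.8), and neither end had a peak. Tagln, a smooth muscle actin-binding gene, had none.

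Receptors and niche genes were mixed. Pdgfra, a receptor that marks mesenchymal progenitors, had an Early-B start peak of 5898 bp (pileup 22.1, −log10 p 7.21), under which the progenitor list had 3 pieces of 601, 369 and 1637 bp, none at the start end. Pdgfrb, the pericyte receptor, was alone among the 10 genes without strand but with an end peak in having the stronger peak in progenitors. That peak covered 3631 bp (pileup 34.7, −log10 p 15.5), against 3220 bp (20.6, 6.24) in Early-B. Both peaks also overlap or lie within 1 kb of an end of another coding gene, Gm52351, and cannot be divided between the 2 genes. Lepr, a marker of bone marrow stroma, had none. Cxcl12, the chemokine that retains progenitors in the marrow, had a start peak of 1973 bp (4.81) and Vcam1, their adhesion ligand, a peak of 3478 bp (4.06) at its higher-coordinate end, both in Early-B alone.

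Mesenchymal transcription factors completed the pattern. Twist1 was covered whole by an Early-B peak of 4124 bp (5.15) and Twist2 had a start peak of 2487 bp (5.47), without progenitor peaks. Prrx1, a limb and craniofacial mesenchyme factor, had the longest start peak of the 29 genes, 8769 bp (chr1:163306524-163315292, 5.88), and a stronger one inside (2877 bp, 14.0). The progenitor list had 2 pieces under the former, of 493 and 1867 bp, with −log10 p values of at most 1.55. Pparg, the adipogenic nuclear receptor gene, had an Early-B start peak of 5144 bp (8.72) and an internal one of 1268 bp (12.2). Progenitor peaks of 870 bp (1.20) and 692 bp (4.55) lay under them.

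The 14 genes without strand were read by coordinate. In Early-B 5 had a peak at the lower-coordinate end (Col1a1, Thbs1, Ccn2, Mmp2 and Pdgfrb), 5 at the higher (Col5a2, Lox, Loxl1, Fn1 and Vcam1), 0 at both and 4 at neither (Loxl2, Dcn, Lum and Tagln). In progenitors 2 had a peak at the lower-coordinate end (Col1a1 and Pdgfrb), 1 at the higher (Fn1), 0 at both and 11 at neither. The same counts were not made over all coding genes without strand, so they show no trait particular to the stromal genes. Which of these ends is the start is not known here.

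Peaks inside the genes, more than 1 kb from either end, were also counted, though not over all coding genes. The Early-B list had 24 of them in 12 genes, with a median length of 834 bp, and 7 reached a −log10 p of 10, the highest being the 19.1 at Fbn1. The progenitor list had 22 in 14 genes, with a median of 606.5 bp and 1 at or above 10, at Cald1. Of the 24, 6 overlapped a progenitor peak. Of the 22, 15 overlapped an Early-B peak, and some were pieces under an Early-B start peak, as at Pdgfra and Prrx1. At 6 of the 11 genes that had both a start peak and another Early-B peak, the other had the higher −log10 p.

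The strength of the Early-B peaks limits these counts. A −log10 p of at least 10 was reached by 11 stromal genes in Early-B and 4 in progenitors, against 56.8% and 54.6% of all coding genes. When at least 10 was asked of peaks in both lists, 8 genes were in Early-B alone (5.07% of all), 3 in both, 1, Pdgfrb, in progenitors alone (2.87%) and 32 in neither, and at the start end 2 of 30, Postn and Acta2, were in Early-B alone (2.57%). When q of at most 0.05 was asked instead, 24 of 44 genes (7.73% of all) and 23 of 30 start ends (4.48%) were in Early-B alone, and 0 genes in progenitors alone (2.10%). With q of at most 0.01 the counts by span were 28 in Early-B alone (7.50%) and 0 in progenitors alone (2.11%). A fold of at least 5 left 3 in Early-B alone (3.71%) and 1, Timp2, in progenitors alone (3.30%). With both lists cut to equal length by −log10 p, 15 genes (5.23%) and 18 start ends (3.23%) were in Early-B alone and 0 genes in progenitors alone (3.78%). A window of 500 bp gave 23 start ends in Early-B alone (4.80%), and one of 2.5 kb gave 18 (5.45%).

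Other genes of matrix and mesenchyme, 77 in a list chosen by function, were read the same way. Of these, 42 had a peak in both lists, 23 in Early-B alone (29.9%), 2 in progenitors alone (Tcf21, 2.35, and Aspn, 1.60) and 10 in neither. With strand, 20 of 55 start ends were marked in Early-B alone (36.4%) and 0 in progenitors alone. By the strongest peak anywhere in the span plus 1 kb, the genes in Early-B alone were led by the collagens Col18a1 (27.9), Col12a1 (15.8), Col5a3 (14.1) and Col8a1 (11.6). At Col18a1, Col5a3 and Col8a1 that peak was not the start peak, whose fold was 2.31, 2.17 and 1.76. For Col12a1 the strand was not given. The 42 Early-B start peaks over the whole list had a median length of 2460 bp and a median fold of 2.79. Genes in both lists were led in Early-B by Plod3 (225), Loxl3 (208), Csf1 (173) and Lamc1 (166).

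Lists of other cells gave other counts. All 15 genes common to blood cells, Ptprc and Spi1 among them, and all 15 housekeeping genes had peaks in both lists. Of 15 B-lineage genes 10 were in both and 5 in Early-B alone, and by start end 8 of 13 were in Early-B alone. Early-B start peaks of those 13 had a median fold of 10.9 and a median length of 8221 bp, so they were far higher than the stromal ones. Of 15 endothelial genes 9 had no peak in either list, Kdr, Tek, Tie1 and Cldn5 among them, 5 were in both and 1, Cdh5 (11.6), was in Early-B alone. Those in both were led by Egfl7 (44.7 in Early-B, 128 in progenitors), Vwf (10.0, 54.5), Pecam1 (27.95, 16.4) and Erg (27.5, 2.59). Of 15 macrophage genes 9 had none, Csf1r, C1qa, C1qb and C1qc among them, 4 were in both, Cd163 (27.9) was in Early-B alone and Marco (1.24) in progenitors alone. The 4 in both were Cd68 (59.0 in Early-B, 85.25 in progenitors), Mrc1 (46.4, 6.89), Mertk (14.2, 7.26) and Adgre1 (1.48, 10.8). Of 25 genes of unrelated tissues, 6 were in Early-B alone (24.0%), 8 in both and 11 in neither, and by start end 3 of 18 were in Early-B alone (16.7%).

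**Figure D5:**
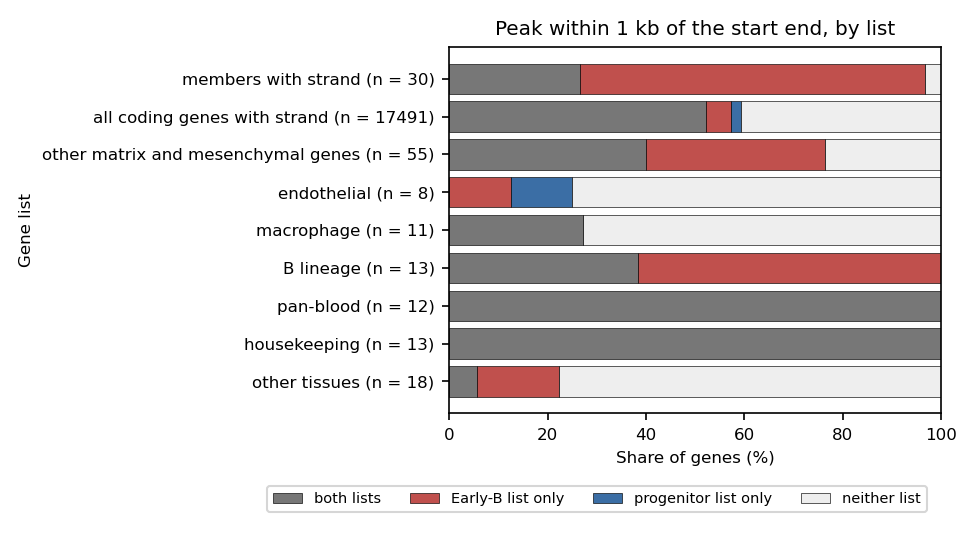
Stacked bars give the share of genes (%) whose start end had a peak in both lists, in the Early-B list alone, in the progenitor list alone or in neither, for each gene list with strand. The Early-B-alone part is 70.0% in the stromal genes, 36.4% in other matrix genes, 61.5% in B-lineage genes and 4.91% over all coding genes.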

How the data were processed

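H3K4me3 was profiled by ChIP-seq. The submitters' processing notes list the tools MACS 1.4.3 and Bowtie 1.1.2, and as builds GRCh38 and mm10, without their roles. For peak calling, the settings, the use of input and any pooling of replicates are not stated in the labels or headers. Each deposited list gives a peak's position and length, the authors' pileup (a coverage signal), the authors' fold enrichment (a ratio to background), and a further pair of values read as the authors' −log10 p and −log10 q, since those names are damaged in the file headers. All are the authors' own values within 1 list and measure no change between lists. Each list was tied to its group by its name.

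Peaks, counted from 1, were joined to RefSeq gene spans of GRCm38.p6, the assembly of mm10, by an overlap of at least 1 bp with the span plus 1 kb, or with 1 kb around an end. Strand came from the RefSeq promoter table (30 of 44 genes). Its promoter nearest the start end was used for CpG counts. The computing used Python 3.11.15, numpy 2.4.6 and pandas 2.3.3, and was checked on simulated peak lists. No test was made. Alternatives were the window, the overlap rule, thresholds on p, q and fold, and equal list lengths.

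The genes, lists and rules were chosen with earlier results of these data known. All 44 genes are named; of other lists, up to 4 per class by −log10 p. Promoters are printed for the 6 Early-B-only genes with the strongest start peaks and for genes with strand and no peak. Other assays of the series, and Early-T cells, were not analysed here.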

Additional observations from a re-analysis of the deposited data

How the results depend on the processing

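Of 71 alternative values, 46 stayed close to the value reported (for counts, within 1.5 times) and 25 did not. With a window of 0 or 5 kb, 19 of 44 genes were in Early-B alone, with equal list lengths 15 and with a peak at either end 28. A −log10 p of at least 10 gave 8 in Early-B alone, 3 in both, 1 in progenitors alone and 32 in neither. A fold of at least 5 gave 3, 1, 1 and 39. With q of at most 0.05, 11 were in both and 9 in neither, and with q of at most 0.01, 7 and 9. Equal list lengths put 9 in neither, and a peak at either end put 11 in both. At the start end, a −log10 p of at least 10 gave 2 in Early-B alone, 2 in both and 26 in neither, and 2 genes, Sparc and Cald1, then had an Early-B peak at the far end alone. There q of at most 0.05 gave 3 in both and 4 in neither, and equal list lengths 4 in neither. Peaks shared between lists fell to 10 of 47 Early-B and 10 of 12 progenitor peaks with q of at most 0.05, and to 2 of 13 and 2 of 4 with a −log10 p of at least 10. Stricter thresholds leave fewer peaks by construction, and the stromal start peaks lie mostly below a −log10 p of 10. Depth is unknown, so no lower limit of detection could be given. No paired analysis was possible because each group has 1 peak list and no result comes from a test.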

Other observations

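Enzymes that modify collagen inside the cell, picked from the matrix list after its values were seen, were mixed. P4ha1, a subunit of prolyl hydroxylase, had −log10 p values of 106.5 in Early-B and 134.1 in progenitors. Its relatives had 14.96 and 1.21 (P4ha2) and 2.96 and 16.6 (P4ha3). Plod1 and Plod3, lysyl hydroxylases, had 22.0 and 225.1 in Early-B and 94.6 and 292.4 in progenitors. Plod2 had 90.2 in Early-B with a 4851-bp peak, and 1.17 in progenitors with a 552-bp peak. Serpinh1, the collagen chaperone, had 6.17 with a 3723-bp peak and 1.53 with a 1399-bp peak. Csf1, the macrophage growth factor gene, had a peak of 5128 bp (173) in Early-B and of 3133 bp (85.2) in progenitors.

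Genes of unrelated tissues with peaks in Early-B alone were led by the kidney gene Umod (19.6, 3363 bp) and the muscle genes Myh7 (13.8), Actc1 (8.91) and Myh6 (8.03). The peaks of Umod and Actc1 lay at the start end, and those of Myh7 and Myh6 did not. Ebf2, a relative of Ebf1, had 1 Early-B peak (8.18, 889 bp) and no progenitor peak. Ebf3, another relative, was in both lists, with 1 Early-B peak (6.457, 5970 bp) and 3 progenitor peaks, the strongest of 2036 bp (5.565).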
